A study of Mus musculus with 4 samples.

Results

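Heat shock proteins are molecular chaperones, proteins that bind other proteins while these fold, are held in a soluble state or are sent for degradation. The set described here held 10 genes of the cytosolic and mitochondrial classes, chosen by name from the gene table: Hspa8, Hspa1a, Hspa1b, Hsph1, Dnajb1, Hsp90aa1, Hspb1, Hspb6, Hspb8 and Hspd1. Each was found once, so that the set made up 10 of the 48432 genes in the table. The values came from polyadenylated RNA of cardiomyocytes, the heart's contractile cells, released by Langendorff perfusion (enzyme run through the coronary vessels) from mice on a mixed C57BL x FVB background. Of the 4 libraries, 2 came from MHC mice, the control, and 2 from Rbfox2 OE mice, which overexpress RBFOX2, a regulator of alternative splicing that the series title specifies as its non-muscle isoform. Mice of both groups had received a doxycycline diet for 3 days, so the control shared the exposure to the drug. The labels do not spell out the MHC genotype, the promoter behind the overexpression, or the age and sex of the animals.

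As background, the Hsp70 proteins bind short hydrophobic stretches of unfolded proteins in a cycle that J domain proteins such as DNAJB1 start and exchange factors such as HSPH1 complete. Hsp90 acts later, on clients that are close to their native fold, and small heat shock proteins hold unfolding proteins in a soluble state without using ATP. HSPD1 is the barrel-shaped chaperonin of the mitochondrial matrix. In heart muscle, which is under constant mechanical load, small heat shock proteins are abundant and associate with sarcomeres and the cytoskeleton. Part of the network is inducible: on proteotoxic stress, heat shock factor HSF1 binds repeats of the element GAA in alternating orientation upstream of its target genes.

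Features of sequence bear on how these genes can be read, and 4 promoter windows are shown for that purpose. RefSeq windows on GRCm38.p6, running from 250 bases before to 50 after an annotated start, were matched for 8 of the 10 genes, with 12 windows in all; Hspa8 and Hsp90aa1 had no entry. A heat shock element was searched on both strands as 3 alternating units of GAA and TTC with 2 bases of any kind between neighbours, starting with either unit. It was also searched as 2 units, GAA then TTC with the same spacing, a palindrome that lies within the longer pattern. Capitals mark every match to either pattern. The first pair of windows shows how alike the inducible Hsp70 genes are, and the second pair shows the genes with a match of 3 units.
Hspa1a, chr17:34972107-34972406, minus strand: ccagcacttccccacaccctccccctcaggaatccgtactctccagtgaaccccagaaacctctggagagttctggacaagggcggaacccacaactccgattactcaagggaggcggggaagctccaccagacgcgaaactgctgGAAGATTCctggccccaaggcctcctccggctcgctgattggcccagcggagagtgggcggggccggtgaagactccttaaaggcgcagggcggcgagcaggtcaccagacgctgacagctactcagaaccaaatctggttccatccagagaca
Hspa1b, chr17:34959189-34959488, minus strand: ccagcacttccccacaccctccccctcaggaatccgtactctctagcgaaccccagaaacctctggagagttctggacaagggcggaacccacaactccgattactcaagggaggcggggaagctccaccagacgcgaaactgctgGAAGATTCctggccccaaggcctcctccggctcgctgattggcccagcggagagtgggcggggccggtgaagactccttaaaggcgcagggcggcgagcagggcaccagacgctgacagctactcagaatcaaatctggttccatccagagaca
Hsph1, chr5:149636287-149636586, minus strand: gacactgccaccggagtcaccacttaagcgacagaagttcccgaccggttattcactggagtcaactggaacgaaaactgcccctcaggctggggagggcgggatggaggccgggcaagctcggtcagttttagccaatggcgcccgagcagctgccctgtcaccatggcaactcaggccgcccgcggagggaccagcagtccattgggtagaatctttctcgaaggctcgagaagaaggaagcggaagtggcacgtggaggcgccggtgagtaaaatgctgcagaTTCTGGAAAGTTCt
Hspd1, chr1:55087883-55088182, minus strand: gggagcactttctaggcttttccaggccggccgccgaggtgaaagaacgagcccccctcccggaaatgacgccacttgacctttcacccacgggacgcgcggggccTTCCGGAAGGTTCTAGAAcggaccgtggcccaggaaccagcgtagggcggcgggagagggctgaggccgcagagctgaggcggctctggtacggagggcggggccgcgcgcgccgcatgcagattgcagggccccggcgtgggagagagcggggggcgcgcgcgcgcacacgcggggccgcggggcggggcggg

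The windows of Hspa1a and Hspa1b carried the same base at 296 of 300 positions, with the same match of 2 units at the same distance from the start. A match of 3 units was present in 2 of the 8 genes, Hsph1 and Hspd1, against 0.662% of the genes with a window. In Hspd1 the matches overlapped and together ran from base -144 to base -127 of its downstream start, and in Hsph1 the match lay just after the start, at bases 37 to 49 of the window shown and at bases 16 to 28 from its other annotated start. With 2 units, 7 of the 8 genes had a match, against 9.04% of all genes, and Dnajb1 was the exception. Among 87 genes with a window from the related chaperone lists described below, 3 had a match of 3 units (Chordc1, Dnajb6 and Hspe1). The matched stretch of Hspd1 lies just before the annotated start of Hspe1 on the opposite strand. The match of Hspe1 may therefore be that same stretch, counted for both genes. A match of 2 units was present in 11 of those 87. These letters are a description of the windows. No binding was measured, and a window without a match says nothing of HSF1.

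The likeness of family members and of processed pseudogenes (reinserted copies of a spliced transcript) also touches the values themselves. Of the distinct 50-base stretches in annotated Hspa1b transcripts, 62.3% also occurred in Hspa1a, and 58.8% of those of Hspa1a occurred in Hspa1b. Pseudogenes shared 48.8% of the stretches of Hspb1, 41.8% of those of Hsp90aa1, 38.0% of those of Hspd1 and 34.6% of those of Hspa8, counting for each gene the copy that shared most. Hspb8 and Hsph1 shared 0% with any other gene. The copies of Hspb1, Hsp90aa1 and Hspd1 were themselves given at no more than 1.15 FPKM, while Gm15459, the copy of Hspa8, was given at 70.6 FPKM in MHC and 58.3 FPKM in Rbfox2 OE. How the authors divided fragments among such copies is not given in the sources used here, so the values of these 6 genes are uncertain to that extent.

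The table gives 1 FPKM value per gene and group (fragments per kilobase of transcript and of mapped fragments, a level that can be compared between genes), with the authors' lower and upper bounds, whose level is not stated. Ranges in parentheses after a value are these bounds, in FPKM. No value per library was used, so there was no replicate spread, no SD and no test, and the depth in reads is unknown. A difference was therefore described by either of 2 criteria: a 2-fold difference, taken as a log2 ratio of 1 or more in either direction after adding 1 FPKM to each value (which shrinks the ratios of low genes), or bounds that did not overlap. As a check of the labels, Rbfox2 itself stood 19.9-fold higher in Rbfox2 OE. In the pooled bulk values, fewer cells of a type and less RNA per cell cannot be told apart.

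None of the 10 heat shock genes met either criterion, in a comparison in which 17.0% of the 11697 genes averaging 1 FPKM or more differed at least 2-fold (6.97% in the direction of a higher value in Rbfox2 OE) and 16.0% had separate bounds. All 10 were among the genes compared, had the status OK in both groups and lay inside their own bounds. Their log2 ratios ran from -0.84 for Dnajb1 to 0.62 for Hsp90aa1, with a median of -0.05, beside a median of -0.06 over all genes compared. The ratio was above 0 in 4 genes and below 0 in 6, beside 5408 and 6289 of all genes compared. When values were rescaled without mitochondrial genes and the top genes, the split turned to 7 and 3, with a median of 0.10. Over all genes compared it turned to 6392 and 5305. That rescaling moved the median of all genes to 0.07, and it turned Hspb1, Hspb6 and Hspd1 to log2 ratios of 0.15, 0.04 and 0.06. In 6 of the 10 the value in Rbfox2 OE was within 20% of that in the control, which held for 30.1% of all genes compared. Summed over the set, the level was 3642 FPKM in MHC and 3347 FPKM in Rbfox2 OE, or 0.710% and 0.749% of the FPKM listed. The status was not OK for 30 genes in MHC and 26 in Rbfox2 OE. Myh6 and Mb, among these, were listed at 0 in both groups, so the 2 shares are not of all transcripts.

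**Figure D1:**
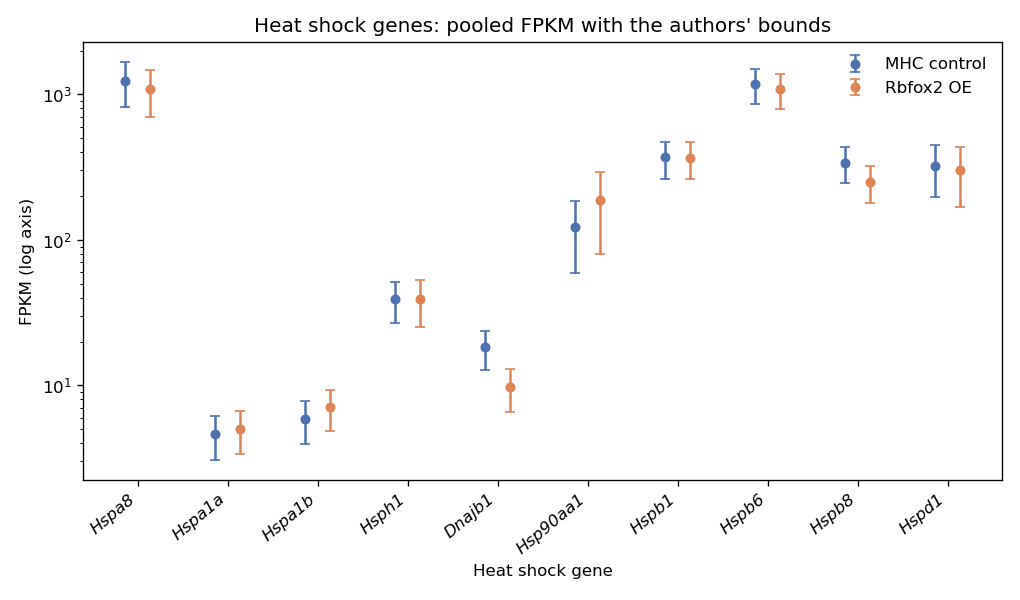
Pooled FPKM of each heat shock gene (log axis) in the MHC control and in Rbfox2 OE, with bars from the authors' lower to upper bound. The bars of the groups overlap for all 10 genes, and the levels span from 4.60 FPKM for Hspa1a to 1241 FPKM for Hspa8 in the control.

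The Hsp70 genes came first. Hspa8, the constitutive cytosolic Hsp70 (chromosome 9, 40800984 to 40810087, plus strand, protein-coding, 9 exons in the principal transcript), stood at 1241 FPKM (821 to 1662) in MHC and 1087 FPKM (698 to 1476) in Rbfox2 OE. Its log2 ratio was -0.19, and the wide overlap of the bounds left room for values from -1.25 to 0.85. It exceeded 99.6% of the genes compared in either group.

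Hspa1a and Hspa1b, the stress-inducible Hsp70 genes whose windows are printed above, are neighbours on chromosome 17 with 1 exon each (34969190 to 34972156 and 34956436 to 34959238, both minus strand). Hspa1a, which overlaps Gm20481 on the opposite strand (at most 0.0686 FPKM), stood at 4.60 FPKM (3.07 to 6.13) in MHC and 5.04 FPKM (3.38 to 6.69) in Rbfox2 OE, a log2 ratio of 0.11. Hspa1b stood at 5.85 FPKM (3.95 to 7.75) and 7.09 FPKM (4.82 to 9.36), a log2 ratio of 0.24. Both inducible genes were thus low in both groups, slightly higher in Rbfox2 OE, with bounds that overlapped along most of their length. Summed, since fragments may be split between the copies, they stood at 10.4 and 12.1 FPKM, a log2 ratio of 0.20. The constitutive Hspa8 was 119 times this sum in the control and 89.6 times in Rbfox2 OE.

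The partners of Hsp70 in the set were Hsph1 and Dnajb1. Hsph1, the Hsp110 exchange factor (chromosome 5, 149614287 to 149636376, minus strand, 18 exons), was given at 39.0 FPKM in both groups, with bounds of 26.9 to 51.1 FPKM in MHC and 25.3 to 52.8 FPKM in Rbfox2 OE. Its log2 ratio was 0.00041, but the bounds alone would allow values between -0.99 and 0.95.

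Dnajb1, the J domain protein that delivers clients to cytosolic Hsp70 (chromosome 8, 83608193 to 83612653, plus strand, 3 exons), had the largest difference in the set. It stood at 18.2 FPKM (12.7 to 23.8) in MHC and 9.73 FPKM (6.60 to 12.9) in Rbfox2 OE, a plain ratio of 0.533 and a log2 ratio of -0.84. The bounds overlapped by 0.178 FPKM, so that Dnajb1 was the gene of the set nearest to meeting either criterion. Relative to Hspa8, its level was 1.47% in the control and 0.895% in Rbfox2 OE.

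Hsp90aa1, the inducible cytosolic Hsp90 (chromosome 12, 110690605 to 110702728, minus strand, 11 exons), was the largest difference in the other direction. It stood at 122 FPKM (58.9 to 184) in MHC and 187 FPKM (80.4 to 294) in Rbfox2 OE, a ratio of 1.54 and a log2 ratio of 0.62. Its bounds were the widest of the set relative to the value: the upper bound lay above the value by 51.6% of it in MHC and 57.1% in Rbfox2 OE, against set medians of 31.8% and 32.5%. They allowed log2 ratios from -1.19 to 2.30. The constitutive paralogue Hsp90ab1, named because it is the closest relative and not by the rule on named genes, stood at 815 FPKM (579.6 to 1051) and 1018 FPKM (727 to 1308). Its level was 6.71 times that of Hsp90aa1 in the control and 5.44 times in Rbfox2 OE.

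The small heat shock proteins were among the most abundant genes of the set. Hspb6, a cardiac small heat shock protein also known as Hsp20 (chromosome 7, 30552178 to 30555443, plus strand, 3 exons), stood at 1179.8 FPKM (859.9 to 1499.7) in MHC and 1090.35 FPKM (791 to 1389) in Rbfox2 OE, a log2 ratio of -0.11. It overlaps Lin37 and Proser3 on the opposite strand, whose values were at most 6.73 FPKM. Hspb1, which binds actin filaments and unfolding proteins (chromosome 5, 135887919 to 135889563, plus strand, 3 exons), was given at 368 FPKM in each group. Its bounds were 264 to 473 FPKM in MHC and 264 to 472 FPKM in Rbfox2 OE. The log2 ratio was -0.0028. The values of Hspb1 were thus nearly equal, within bounds that allowed log2 ratios from -0.84 to 0.84.

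Hspb8, which works with the cochaperone BAG3 in the selective autophagy of damaged muscle proteins (chromosome 5, 116408491 to 116422864, minus strand, 3 exons), stood at 338 FPKM (245 to 432) in MHC and 251 FPKM (179.9 to 321) in Rbfox2 OE. The lower value in Rbfox2 OE gave a log2 ratio of -0.43 with overlapping bounds. It was the lowest ratio of the set after that of Dnajb1.

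The mitochondrial chaperonin gene Hspd1 (chromosome 1, 55077835 to 55088243, minus strand, 12 exons) stood at 324 FPKM (198 to 451) in MHC and 303 FPKM (169 to 438) in Rbfox2 OE, a log2 ratio of -0.10. It overlaps the start of Hspe1, which encodes the lid of the same chaperonin on the opposite strand, and the table gives both genes 1 locus. Hspe1, named for this overlap, stood at 166 FPKM (53.2 to 279) in MHC and 203 FPKM (75.5 to 330) in Rbfox2 OE. The level of Hspd1 over Hspe1 was 1.95 in the control and 1.49 in Rbfox2 OE, and both pairs of bounds overlapped.

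**Figure D2:**
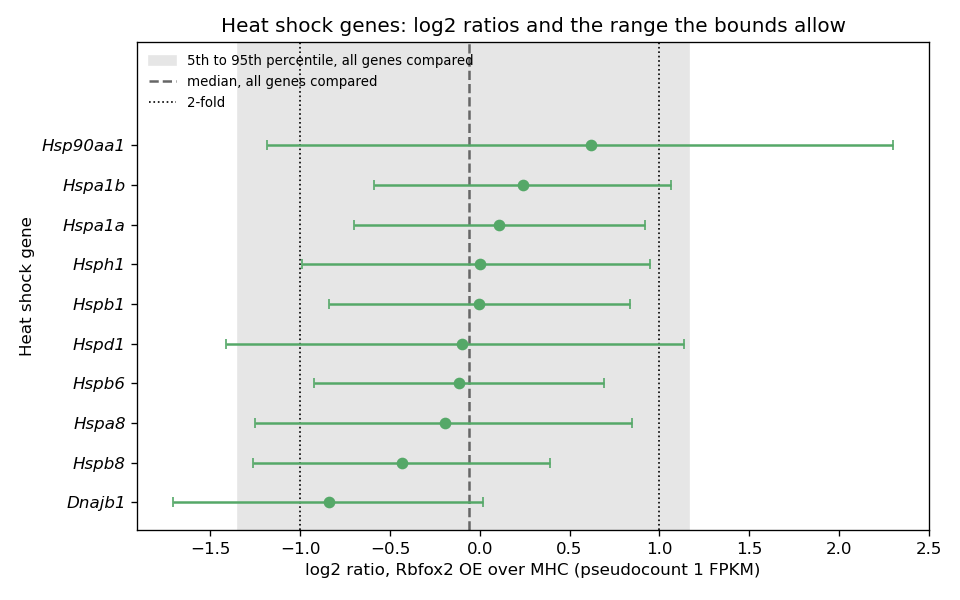
Log2 ratio, Rbfox2 OE over MHC, for each heat shock gene (points, pseudocount 1 FPKM), with bars from the lowest to the highest ratio that the authors' bounds allow. Grey shading spans the 5th to the 95th percentile of all genes compared (-1.35 to 1.17), the dashed line is their median and the dotted lines mark 2-fold; all 10 points lie inside 2-fold, and every bar crosses 0.

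The order of levels was nearly the same in both groups. In the control it ran Hspa8, Hspb6, Hspb1, Hspb8, Hspd1, Hsp90aa1, Hsph1, Dnajb1, Hspa1b and Hspa1a. In Rbfox2 OE the places of Hspa8 and Hspb6 were exchanged, and so were those of Hspb8 and Hspd1, but the bounds of these neighbours overlapped in both groups. In the control the bounds were separate between Hspb6 and Hspb1, Hspd1 and Hsp90aa1, Hsp90aa1 and Hsph1, Hsph1 and Dnajb1, and Dnajb1 and Hspa1b. In Rbfox2 OE the bounds of Dnajb1 reached those of Hspa1b, and those of Hsp90aa1 reached those of Hspb8. With 1 value in each of 2 groups there is no pattern by which to name other genes most like these.

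The rest of the chaperone network was described from 9 lists, which share 3 genes and hold 109 distinct genes, 103 of them compared. Bounds were separate for 11, 3 with the higher value in Rbfox2 OE and 8 with the lower, beside 6.67% higher and 9.33% lower among all genes compared. Rescaling left 3 and 8 related genes while all genes shifted to 8.69% higher and 7.05% lower. Over all 11697 genes compared, 815 were higher and 1172 lower at 2-fold as deposited, and 1055 and 916 on rescaling. At 2-fold, 1 related gene was higher and 8 lower as deposited, which became 5 and 5 on rescaling. Of those 9 genes as deposited, Unc45b, a chaperone of myosin, was the 1 with overlapping bounds, at 80.1 FPKM (45.2 to 115) in MHC and 37.7 FPKM (7.13 to 68.3) in Rbfox2 OE; it falls outside the rule for named genes. The median log2 ratio of the related genes was -0.13 as deposited and 0.013 rescaled. The lists named after a family are not complete. Hspa5, Hsp90b1, Hyou1, Dnajb9, Dnajb11, Dnajc3 and Dnajc10 were placed only in the list of the endoplasmic reticulum, and Hscb only in the mitochondrial list.

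Of the 4 other small heat shock genes compared, 2 had separate bounds, both lower, beside 9.33% lower among all genes compared. The bounds overlapped for Cryab, at 2212 FPKM in MHC and 1723 FPKM in Rbfox2 OE (log2 ratio -0.36), and for Hspb2 (-0.40). Both are named to complete the list and not by the rule. The median log2 ratio of the list was -0.90 (-0.76 when rescaled). The median was -0.65 with a pseudocount of 5 FPKM, and -0.38 without a filter on low values, which brought in Cryaa and Hspb9, both near or at 0. Hspb7, a small heat shock protein of heart and skeletal muscle, stood at 2015 FPKM (1477 to 2553) in MHC and 709.5 FPKM (516 to 903) in Rbfox2 OE, 2.84-fold lower. Hspb3, a muscle protein that pairs with HSPB2, stood at 11.1 FPKM (7.01 to 15.1) and 3.58 FPKM (1.96 to 5.20), 3.09-fold lower. The level of Hspb7 was 1.71 times that of Hspb6 in the control and 0.651 times in Rbfox2 OE. The difference between the 2 ratios was not tested.

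Of the 22 cochaperones of Hsp70 and Hsp90 compared, 2 were higher and 2 lower with separate bounds, with a median log2 ratio of -0.25 (-0.098 when rescaled). At 2-fold, 1 was higher and 3 lower, which turned to 4 higher and 1 lower when rescaled. Of the 11697 genes compared, 815 were higher and 1172 lower at 2-fold, which turned to 1055 and 916 when rescaled. Bag3, the exchange factor that works with HSPB8, stood at 165 FPKM (119 to 212) in MHC and 353 FPKM (256.5 to 450.4) in Rbfox2 OE, a ratio of 2.14. It overlaps 2610306O10Rik, given at no more than 1.24 FPKM. Its level was 0.488 times that of Hspb8 in the control and 1.41 times in Rbfox2 OE: the value of Bag3 was higher in Rbfox2 OE and that of Hspb8 lower. Ptges3, the Hsp90 cochaperone p23, stood at 22.5 FPKM (15.5 to 29.5) and 42.2 FPKM (29.6 to 54.8), so that its bounds were only just separate.

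The cochaperone with the largest difference was Ahsa1, which stimulates the ATPase of Hsp90. It stood at 97.6 FPKM (69.0 to 126) in MHC and 19.5 FPKM (13.4 to 25.7) in Rbfox2 OE, 4.997-fold lower, with a log2 ratio of -2.26. It overlaps Gm47293 on the same strand, which was not analysed here. Cdc37l1, a relative of the Hsp90 cochaperone CDC37, stood at 40.7 FPKM (28.8 to 52.7) and 18.7 FPKM (13.0 to 24.4), a log2 ratio of -1.08. When rescaled, the log2 ratio of Cdc37l1 was -0.94, short of 2-fold. It overlaps Ak3 on the opposite strand, given at 40.5 and 45.4 FPKM, and how fragments were divided between them is unknown.

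Among the 9 other genes listed for the Hsp70 and Hsp110 families, 2 had separate bounds. Hspa4l, a relative of Hsph1 in the Hsp110 family, stood at 23.6 FPKM (13.0 to 34.2) in MHC and 7.996 FPKM (4.33 to 11.7) in Rbfox2 OE, 2.95-fold lower. Hspa12a, a distant member of the Hsp70 family, stood at 3.74 FPKM (2.56 to 4.92) and 1.22 FPKM (0.781 to 1.67), 3.05-fold lower. The list's median log2 ratio was 0.05 (0.21 when rescaled). Of its 9 ratios, 6 were above 0, beside 5408 of the 11697 genes compared. Hspa12a overlaps Eno4, which was listed at 0.

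Of the 23 other J domain genes listed, 1 was higher and 1 lower with separate bounds, and the median was -0.35 (-0.21 when rescaled). In 20 of them the ratio was below 0 (15 when rescaled), beside 6289 of the 11697 genes compared (5305 when rescaled). Dnajb4, a close relative of Dnajb1, stood at 61.6 FPKM (42.9 to 80.4) in MHC and 119.8 FPKM (82.2 to 157) in Rbfox2 OE, a log2 ratio of 0.95. Its value thus lay in the direction opposite to that of Dnajb1. Dnajc27, a small GTPase with a J domain, stood at 4.39 FPKM (2.96 to 5.83) and 1.92 FPKM (1.22 to 2.62).

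Of the 15 mitochondrial chaperones and proteases, Lonp1 was the 1 gene with separate bounds. This gene of the ATP-dependent matrix protease stood at 69.2 FPKM (49.3 to 89.1) in MHC and 31.7 FPKM (22.3 to 41.1) in Rbfox2 OE, 2.19-fold lower. Its log2 ratio was -1.10, and -0.95 when rescaled, which falls short of 2-fold. The median of the list was -0.135 (0.0030 when rescaled). In 11 of the 15 the ratio was below 0 (7 when rescaled), beside 6289 of the 11697 genes compared (5305 when rescaled). The other Hsp90 genes (2 compared), the cytosolic chaperonin CCT with prefoldin (14 compared) and the chaperones of the endoplasmic reticulum (14 compared) had 0 genes with separate bounds, with medians of -0.26, 0.0034 and 0.04 (-0.11, 0.15 and 0.18 when rescaled). The heat shock factors Hsf1, Hsf2 and Hsf4 had log2 ratios of -0.33, -0.12 and -0.06, also with overlapping bounds. When rescaled, 2 of the 3 ratios were above 0, beside 6392 of the 11697 genes compared.

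**Figure D3:**
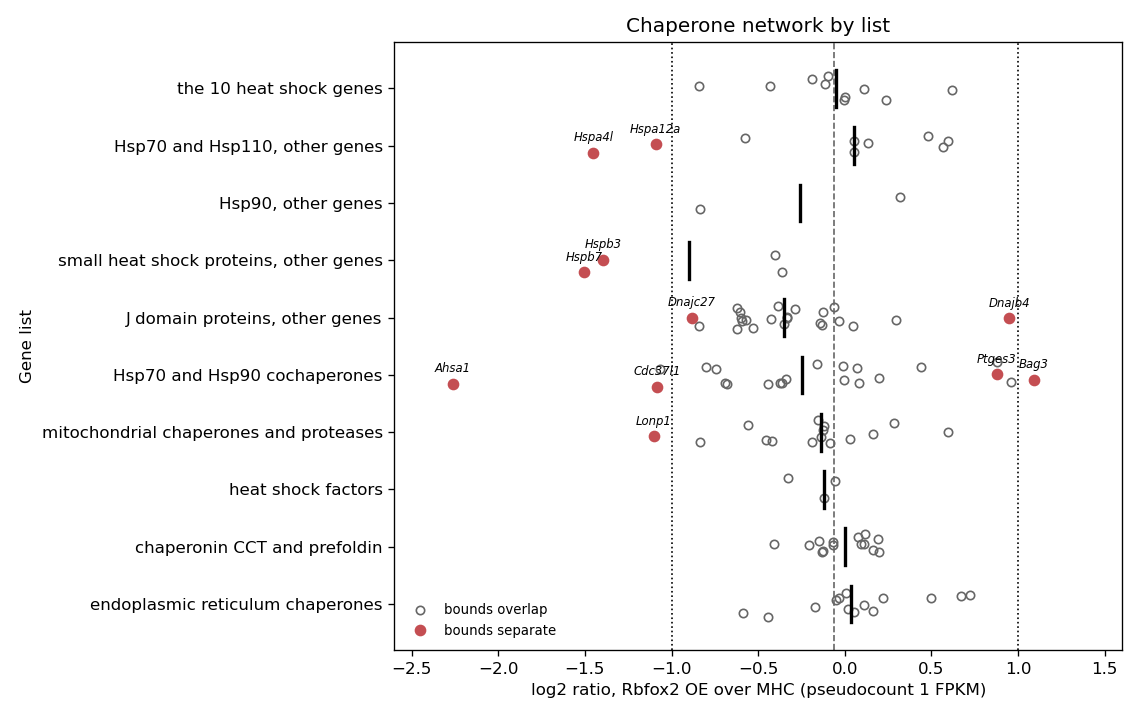
Log2 ratio, Rbfox2 OE over MHC (horizontal axis, pseudocount 1 FPKM) for each compared gene of the heat shock set and of 9 related lists. Filled points are genes with separate bounds, open points genes whose bounds overlap, black bars list medians, the dashed line the median of all genes compared and the dotted lines 2-fold; 11 related genes have filled points and the heat shock set has 0.

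Markers of other cells and genes of early stress are given beside the heat shock genes, which many cell types express. Of the fibroblast markers 5 of 8, of the endothelial 3 of 8, of the macrophage and leukocyte 9 of 10, of the smooth muscle and pericyte 3 of 7 and of the red blood cell markers 4 of 5 were higher in Rbfox2 OE with separate bounds, beside the 6.67% of all genes compared. Their summed levels were 213 against 504 FPKM, 219.7 against 387 FPKM, 117 against 405 FPKM, 142 against 321 FPKM and 56.6 against 295 FPKM, in that order and with the control first. Cardiomyocyte markers summed to 59627 and 37727 FPKM, with 5 of 10 compared lower by separate bounds, beside 9.33% of all genes compared. Myh6 and Mb were listed at 0 in both groups with the status HIDATA, given by Cuffdiff to loci with too many fragments. Of 16 immediate early genes compared, which rise within minutes of cell stress, 2 were higher and 3 lower with separate bounds. Over all genes compared these shares were 6.67% and 9.33%. The median log2 ratio of the immediate early genes was -0.16. Junb, 1 of the 16, was given at 192 and 225 FPKM, far above its own upper bounds of 1.44 and 1.23 FPKM, so its bounds give no usable call. The part of these markers and early genes in the values of the heat shock genes was not tested.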

How the data were processed

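Polyadenylated RNA of isolated mouse cardiomyocytes was sequenced from 4 libraries, 2 per group, assigned by their titles. The deposited values were FPKM that the authors made with Cuffdiff, as its column names show per the file headers; the submitters' processing notes name Cuffdiff 2.2.1, STAR 2.4.2a and the build GRCm38, without their roles. Normalization mode, annotation, use of strand and the level of the bounds are not given in the sources used here. Each value pools the 2 libraries of a group, so neither replicate error nor depth can be given; unused columns of per-sample values numbered 0. The design called for limma only if values per library were present, which they were not.

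Where several rows had 1 gene name (110 names), they were added up. Log2 ratios used a pseudocount of 1 FPKM, and genes averaging 1 FPKM or more over the groups were compared (Python 3.11.15, pandas 2.3.3). The calculation was tested on simulated data. Named beside the 10 genes were Rbfox2 and, per related list, at most 4 genes with separate bounds and status OK, largest log2 ratio first. The members and lists were chosen with earlier results of these data known. Coordinates and transcripts came from GENCODE M21 on GRCm38, which held 99.2% of the table's identifiers, and promoter windows from RefSeq on GRCm38.p6. Alternatives covered pseudocount, low-value filter, fold threshold, scaling, status, repeated names, the summed Hspa1 pair and motif length.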

Additional observations from a re-analysis of the deposited data

How the results depend on the processing

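No paired analysis was possible because each group has 1 pooled value, and fits without each replicate in turn were not run for the same reason; how far libraries of a group differ is therefore unknown. The count of heat shock genes with separate bounds stayed at 0 under centring and rescaling. Pseudocounts do not enter the bounds, and filters, status and repeated names only drop or split rows. Centring and rescaling both raised the Rbfox2 OE values, which widens the overlap of Dnajb1, the gene nearest to separate bounds. A scaling in the other direction was not run, so the 0 is no check of that gene. The count at 2-fold stayed at 0 except at a 1.5-fold threshold, which gave 2 (Dnajb1 and Hsp90aa1). Rescaling without mitochondrial and top genes shifted log2 ratios by 0.15 at high levels and moved the median of all genes from -0.06 to 0.07. It moved the median of the set from -0.05 to 0.10 and that of the related genes from -0.13 to 0.013, and centring on the median gene gave 0.012 for the set, so the sign of these medians is set by the scaling. Dnajb1 lay between -0.90 and -0.66 and Hsp90aa1 between 0.60 and 0.77 over 8 alternatives each. Only the changes of pseudocount and of scaling can move the ratios of these genes. Leaving out related genes that overlap another annotated gene, a choice made after seeing the data, left 5 lower with separate bounds in place of 8, because fewer genes were compared. Over all genes, 1.5-fold and 4-fold thresholds gave 4520 and 290 genes in place of 1987 at 2-fold, and a pseudocount of 5 gave 863. A match of 2 motif units in place of 3 was found in 7 genes in place of 2.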
